A study of Mus musculus with 6 samples.

Results

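The genes described here encode the enzymes of glutathione metabolism and of antioxidant defence: glutathione transferases, the enzymes that make and reduce glutathione, glutathione peroxidases, peroxiredoxins, catalase, superoxide dismutases and classical targets of the transcription factor NRF2. The list holds 40 genes of these functions, of which 38 had a row of the array that names only them, out of 19938 genes measured. Gsta2 and Prdx6 had no such row. Expression was measured in LSK CD150- cells, blood-forming progenitors that lack mature lineage markers and carry Sca-1 and Kit but not CD150, sorted from marrow of mice with both Cebpa alleles floxed (Cebpa fl/fl). Its product, C/EBPα, is a transcription factor that progenitors need to form granulocytes. The 3 deleted mice also carried Mx1Cre, a recombinase transgene driven by the interferon-inducible Mx1 promoter, which is active in many cell types, and the 3 control mice did not. All 6 mice received pIpC, a double-stranded RNA that induces interferon, and were taken at day 18, so interferon exposure is shared by both groups whereas the transgene and the loss of Cebpa cannot be told apart. No source used here gives their strain or age.

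Glutathione is a small thiol peptide that cells build from glutamate, cysteine and glycine. Transferases attach it to reactive compounds, peroxidases use it to reduce peroxides, and glutathione reductase restores it with NADPH. Many of these genes carry antioxidant response elements bound by NRF2, and low levels of reactive oxygen are a known feature of resting blood stem cells.

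The arrays were comparable in overall signal, with medians on the log2 scale between 6.16 and 6.23. Pearson's r over all genes, which are not independent of each other, was 0.987 to 0.990 between arrays of the same genotype and 0.979 to 0.986 between genotypes. Cebpa read 7.84, 7.85 and 7.73 in the controls and 6.37, 5.82 and 6.09 in the deleted mice, a log2 difference of -1.71 ± 0.14 (SE, limma adjusted p = 0.000883), and no source used here says whether its probes lie in the deleted part. By an exact two-sided permutation test over the 6 mice p was 0.1, which is the lowest p this number of mice can reach. The labels call the mice female, but the Y-linked Kdm5d read between 8.07 and 8.48 on every array and Xist, the transcript of the silenced X chromosome, between 4.46 and 5.13, so that all 6 arrays went against that label in the same way. Of the genes of the sort itself, Kit was lower in deleted mice (log2 -0.75, limma adjusted p = 0.0270). Slamf1, the gene of CD150, was dim, at 3.72 ± 0.23 in controls and 4.25 ± 0.53 in deleted mice (SD, n = 3 each), with every deleted mouse above every control and an adjusted p of 0.314. Ly6a, the gene of Sca-1, had no row of its own. Of progenitor genes that were not sorted on, Flt3 was lower and Cd48 was higher (log2 -0.71 and 1.00, limma adjusted p = 0.0469 and 0.00520). Cd34 did not pass (log2 -0.27, limma adjusted p = 0.232), although its genotypes did not overlap.

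Of the 38 genes, 2 fell and none rose after deletion, at a Benjamini-Hochberg adjusted p under 0.05 over all genes in limma. They were Gsta4 and Mgst1, a cytosolic and a membrane-bound glutathione transferase. These 2 are 5.26% of the genes, where 1.43% of all genes passed in either direction and 0.732% passed as lower. Over all genes 140 were higher and 146 lower, a split that became 207 and 129 after quantile normalization and 231 and 120 when every array was set to a common median. The membrane-bound Mgst2 had the largest positive difference and did not pass (adjusted p = 0.0540). The other 35 genes lay between -0.42 and 0.39, and for each of them the 95% interval of the log2 difference lay within a 2-fold change in either direction, as it did for 97.5% of all genes. Among the 38 genes, 7 had an unadjusted p under 0.05, or 18.4%, against 15.9% of all genes, and 8 had genotypes whose values did not overlap, or 21.1%, against 21.2% of all genes. The shares by unadjusted p and by non-overlap were near the background. The share of adjusted calls rests on 2 genes of a list chosen with earlier results of these data known. The median log2 difference of the list was -0.06, against 0.03 for all genes. A negative difference was found for 26 of the 38 genes, or 68.4%, against 43.5% of all genes. That count was 20 after that quantile normalization and 21 after that centring. The list medians were then -0.03 and -0.01, against 0.05 and 0.08 for all genes.

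**Figure D1:**
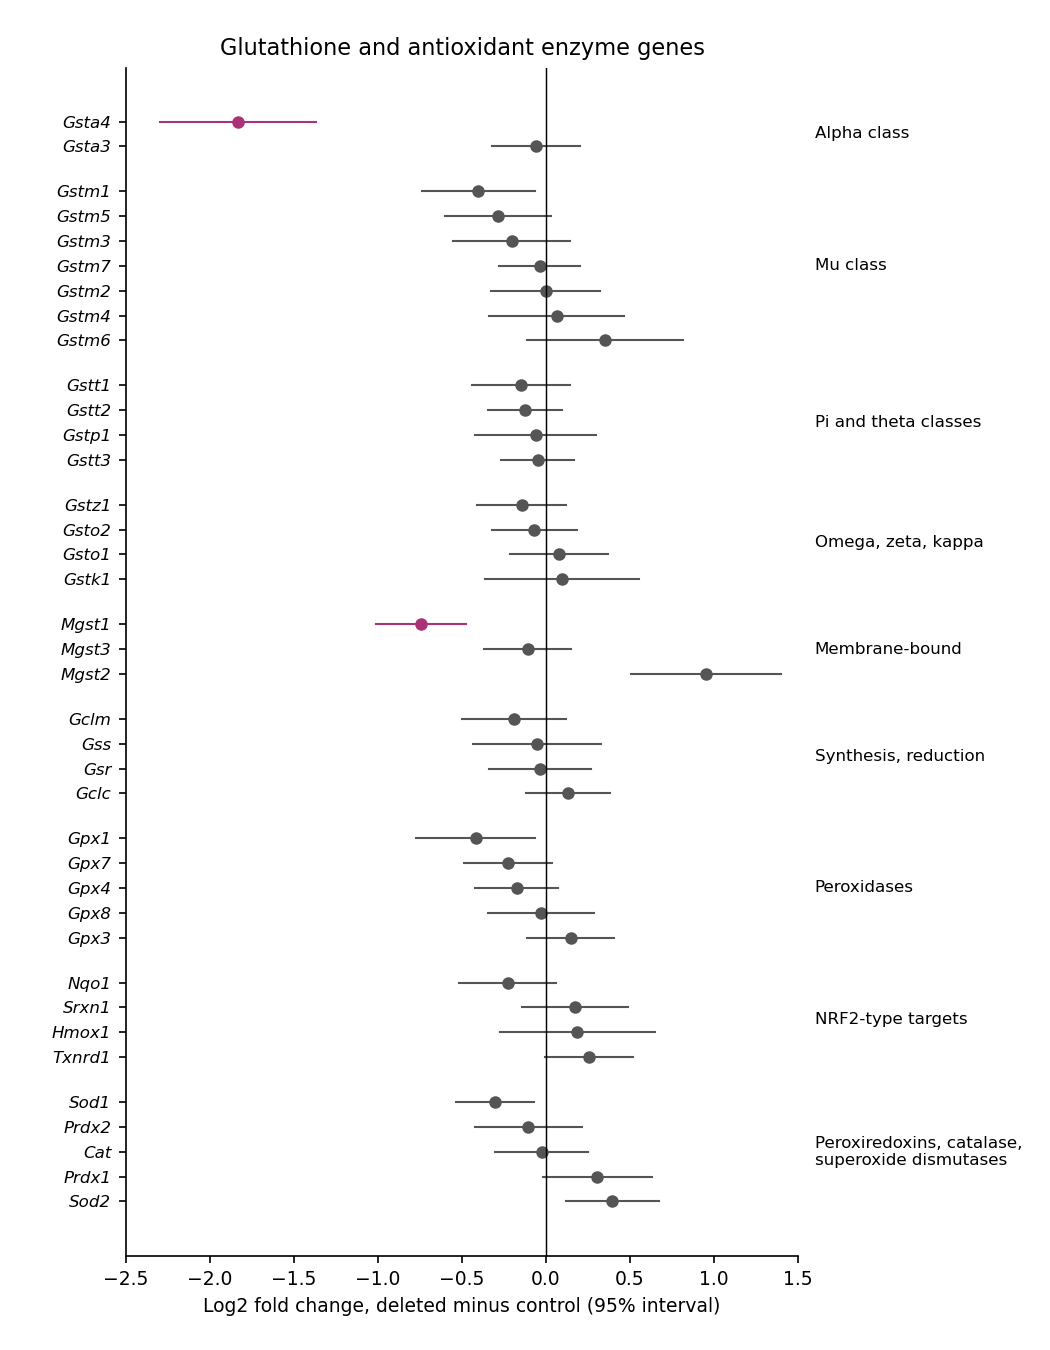
Log2 fold change of each measured gene, deleted minus control, as a dot with its 95% interval from limma (n = 3 per genotype), grouped by function along the vertical axis. Gsta4 (-1.84) and Mgst1 (-0.74), drawn in purple, passed the adjusted threshold, and Mgst2 (0.95) lay farthest on the positive side.

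Promoter sequences are shown for Mgst1, which passed the threshold, for Mgst2, the membrane-bound relative with a difference of the opposite sign, and for Gsta3, the alpha-class relative of Gsta4 that did not pass. The choice of Mgst2 and Gsta3 was made after their values were seen. Each sequence is the 250 bases before an annotated start in RefSeq (build GRCm38.p6), 5′ to 3′ on the gene's strand. Capitals mark matches to the core of the antioxidant response element, TGACNNNGC, or to a C/EBP core, TTGCNNAA, searched on both strands. The sequences lie at chr6:138140277-138140526 (Mgst1, plus strand), chr3:51660929-51661178 (Mgst2, plus strand) and chr1:21240335-21240584 (Gsta3, plus strand).
Mgst1: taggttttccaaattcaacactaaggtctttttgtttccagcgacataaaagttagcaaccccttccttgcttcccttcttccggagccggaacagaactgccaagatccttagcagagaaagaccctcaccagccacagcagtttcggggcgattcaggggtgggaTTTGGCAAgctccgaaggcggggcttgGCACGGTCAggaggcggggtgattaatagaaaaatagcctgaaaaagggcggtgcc
Mgst2: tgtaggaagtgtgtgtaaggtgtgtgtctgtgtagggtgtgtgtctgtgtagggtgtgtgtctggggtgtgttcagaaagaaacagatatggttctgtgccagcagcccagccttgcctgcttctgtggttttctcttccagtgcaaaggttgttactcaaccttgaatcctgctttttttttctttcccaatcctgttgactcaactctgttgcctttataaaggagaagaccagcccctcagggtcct
Gsta3: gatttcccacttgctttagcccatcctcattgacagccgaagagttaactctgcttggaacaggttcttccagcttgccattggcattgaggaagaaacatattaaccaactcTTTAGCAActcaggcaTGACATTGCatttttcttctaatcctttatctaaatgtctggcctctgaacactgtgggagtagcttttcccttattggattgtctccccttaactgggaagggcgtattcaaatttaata

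Mgst1 held a C/EBP core from -83 to -76 and an antioxidant core from -56 to -48 relative to its start, both read on the opposite strand. Another annotated Mgst1 start had neither match, and the Mgst2 window had none. Gsta3 held a C/EBP core from -137 to -130 and an antioxidant core from -121 to -113. Over the 47 promoter windows found for 33 of the measured genes, 8 held the antioxidant core, or 17.0%, against 10.2% of 32851 promoter windows in the table. The 8 belonged to Gclm, Gsta3, Gstm5, Gstm7, Mgst1, Prdx1, Sod1 and Txnrd1. The C/EBP core was in 4 windows, or 8.51%, against 9.56% of all, namely those of Gsta3, Gstm2, Gstt1 and Mgst1. A match is a run of letters and not a measured binding site. Gsta4, Gstt2, Gclc, Gsr and Hmox1 had no entry.

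Alpha-class transferases act on lipid peroxidation products, and Gsta4 is known for its activity towards 4-hydroxyalkenals, aldehydes released from oxidised membrane lipids. Gsta4, on chromosome 9, read 7.68, 8.58 and 7.91 in controls a, b and c and 6.15, 6.10 and 6.42 in deleted mice a, b and c. Every control lay above every deleted mouse, with control b highest and the deleted mice close together near the median of all values, 6.202. The means were 8.06 ± 0.46 and 6.22 ± 0.17 (SD, n = 3 each), a 3.57-fold fall (95% interval 2.59 to 4.93) with a log2 difference of -1.84 ± 0.21 (SE) and a limma adjusted p of 0.00520. Because no detection calls were used here, how much of the signal in deleted mice was background was not tested. The call held when any array was left out, with adjusted p-values of 0.00589 to 0.0382 and log2 differences of -2.02 to -1.58.

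The other alpha-class genes gave no such difference. Their signals were below the median of all values, 6.202, on every array, where a fall like that of Gsta4 may not be readable. Gsta3 lay at 5.49 ± 0.13 in controls and 5.43 ± 0.13 in deleted mice (SD, n = 3 each), a log2 difference of -0.06 ± 0.12 (SE, adjusted p = 0.852). Gsta2 was read only by 4 rows that also name Gsta1 and a pair of predicted genes, with signals of 4.21 to 5.28 over all arrays and differences of -0.07 to -0.05. Neighbouring genes were examined after the values of Gsta4 had been seen. Among the 5 measured genes on each side of it in gene order, none of the 10 passed the threshold (limma, adjusted p of at least 0.0606). They included Gclc, the catalytic subunit of glutamate-cysteine ligase (0.13), and the small nuclear RNA gene Rn7sk, which had the largest difference among them (-0.56 ± 0.12 SE).

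The membrane-bound transferases are small integral membrane proteins of the MAPEG family. Mgst1 is an abundant microsomal and mitochondrial outer membrane enzyme with transferase and peroxidase activity. It read 6.58, 6.44 and 6.40 in controls and 5.92, 5.72 and 5.56 in deleted mice, so that the groups did not overlap and the deleted mice lay below the median of all values. The means were 6.47 ± 0.10 and 5.73 ± 0.18 (SD, n = 3 each), a 1.67-fold fall (95% interval 1.39 to 2.02) with a log2 difference of -0.74 ± 0.12 (SE, limma adjusted p = 0.0215). The call was lost without control a (adjusted p = 0.0728), control b (0.0781), deleted b (0.0840) or deleted c (0.0626), while the log2 difference stayed between -0.84 and -0.66. None of its 10 nearest measured neighbours passed (adjusted p of at least 0.0893).

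Mgst2, which conjugates glutathione to leukotriene A4, read 8.83, 8.40 and 8.31 in controls and 9.11, 9.86 and 9.43 in deleted mice. Each deleted mouse lay above each control, with deleted b highest and control a and deleted a closest together. The log2 difference was 0.95 ± 0.20 (SE; 95% interval 0.51 to 1.40), from 8.51 ± 0.28 to 9.47 ± 0.38 (SD, n = 3 each), with an adjusted p of 0.0540. It passed with an intensity trend in the prior (0.0470), among genes at or above the 25th percentile (0.0452) or the median (0.0377) of mean intensity, after median centring (0.0410), with array weights (0.0438) and without deleted a (0.0488), and reached 0.170 without control b. Mgst3, the remaining member, differed by -0.11 ± 0.12 (SE, adjusted p = 0.709). Leukotriene synthesis genes from the related lists lay close to 0, with Ltc4s at -0.06 and Alox5ap, the 5-lipoxygenase activating protein, at -0.08 (adjusted p = 0.855 and 0.842).

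**Figure D2:**
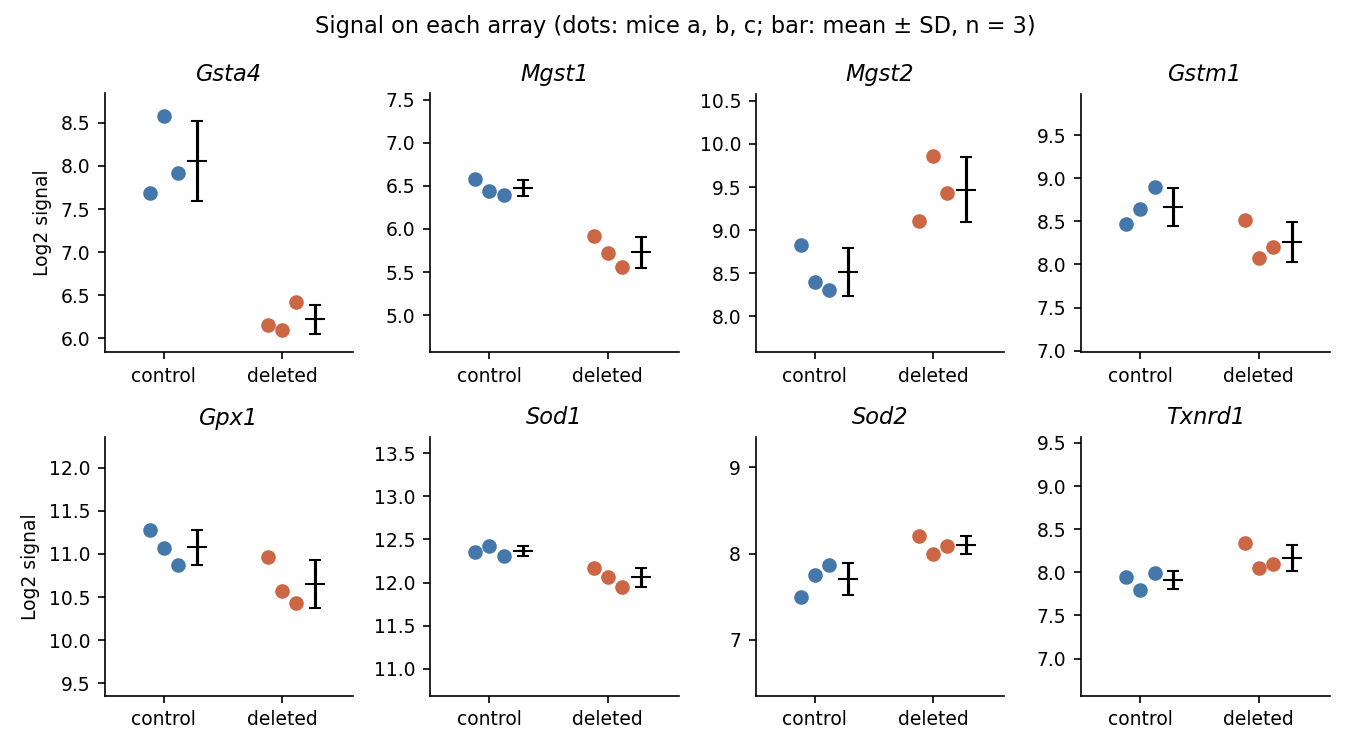
Log2 signal on each array for 8 genes, with controls in blue and deleted mice in orange; dots are mice a, b and c from left to right, bars are mean ± SD (n = 3), and every panel spans the same range of log2 units. Gsta4 and Mgst1 are lower and Mgst2 is higher in deleted mice without overlap, whereas Gstm1 and Gpx1 overlap between genotypes. Sod1, Sod2 and Txnrd1 also do not overlap, and of the 8 genes only Gsta4 and Mgst1 passed the adjusted threshold.

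Some genes used as markers of other cell types also differed between the genotypes. Of 12 neutrophil markers, 4 fell (S100a8, S100a9, Camp and Csf3r) and none rose, 10 had a negative log2 difference, and the median was -0.44. Their mean log2 signal was 7.05 to 7.15 in controls and 6.17 to 6.30 in deleted mice. Their summed linear signal overlapped between genotypes, at 3788 to 4657 in controls and 2989 to 4455 in deleted mice, but Mpo, the myeloperoxidase gene that progenitors also express, made up much of it and did not pass (log2 0.25). Without Mpo, a step added after its values were seen, the sum was 1763 to 1967 in controls and 697 to 771 in deleted mice. S100a8 and S100a9 fell most, with log2 differences of -3.51 and -3.37, against -1.09 for Csf3r and -0.97 for Camp. Ltf, Ngp, Lcn2, Retnlg and Mmp9 lay below the median of all values in both groups. The 4 markers that fell lay above it in controls. Elane and Prtn3, like Mpo, also lay above it in controls and did not pass (log2 -0.57 and -0.31, limma adjusted p = 0.103 and 0.269). Of 10 mast cell, basophil and eosinophil markers, Cpa3, a mast cell protease gene, rose by 3.47 on the log2 scale and none fell, with 6 of the 10 differences negative and a median of -0.04. Their summed signal was 653 to 731 in controls and 2881 to 3588 in deleted mice, and without Cpa3 it was 412 to 489 and 442 to 447. Of 9 monocyte and macrophage markers, Cd68 fell by 0.90 on the log2 scale and none rose. The median of this list was 0.02 and 5 of the 9 differences were positive. In both groups 8 of the 9 genes lay below the median of all values. The lowest value of any row was 2.17, so a value of 0 could not mark an absent gene on this scale. The part of these cell types in the differences of Gsta4, Mgst1 and Mgst2 was not tested, and in sorted pools fewer cells of a type and less RNA per cell cannot be told apart.

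The mu-class transferases detoxify electrophiles in the cytosol and are all encoded on chromosome 3. All 7 were measured and none passed. Gstm1, the most widely studied member, read 8.46, 8.64 and 8.89 in controls and 8.52, 8.07 and 8.20 in deleted mice. Deleted a lay within the range of the controls, and the other deleted mice lay below all of them. Its log2 difference was -0.40 ± 0.15 (SE, adjusted p = 0.228), followed in the same direction by Gstm5 (-0.28), Gstm3 (-0.20), Gstm7 (-0.04) and Gstm2 (-0.00), with Gstm4 at 0.06 and Gstm6 at 0.35. Gstm6 read 4.01 ± 0.35 in controls, below the lower quartile of all values, 4.91. Gstm7 and Gstm2 had positive differences after quantile normalization and median centring. A further Gstm3 row, numbered among those of the other mu-class genes on chromosome 3, differed by 0.10. The row used here, at -0.20, is numbered among rows of chromosome 10 genes. The direction for Gstm3 thus depends on the row. The mu-class genes are close in sequence, and probes that read several of them would not be separated by these rows.

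The pi and theta classes also had no call among 4 genes. Gstp1, a cytosolic transferase that also binds stress kinases, read 11.09, 11.00 and 11.22 in controls and 11.42, 10.91 and 10.80 in deleted mice, with the controls inside the span of the deleted mice. Its log2 difference was -0.06 ± 0.16 (SE, 95% interval -0.42 to 0.30). Of the rows that name Gstp1 together with Gstp2, each differed by no more than 0.08. Gstt1 (-0.15), Gstt2 (-0.12) and Gstt3 (-0.05) had adjusted p-values of 0.603 to 0.855, and Gstt2 was the only gene of these classes whose genotypes did not overlap.

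In the omega, zeta and kappa classes, none of 4 genes passed. Gsto1, which reduces dehydroascorbate and methylated arsenic, read 7.68, 7.30 and 7.63 in controls and 7.74, 7.61 and 7.48 in deleted mice, with overlapping groups and a log2 difference of 0.08 ± 0.13 (SE). Gsto2, its neighbour on chromosome 19, differed by -0.07, Gstz1, the maleylacetoacetate isomerase of tyrosine breakdown, by -0.14, and the mitochondrial Gstk1 by 0.10.

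Glutathione synthesis and reduction gave no call among 4 genes. Gclc, whose product catalyses the rate-limiting step of synthesis, read 8.44, 8.43 and 8.24 in controls and 8.63, 8.50 and 8.38 in deleted mice. Deleted c lay inside the control range, and the log2 difference was 0.13 ± 0.11 (SE, 95% interval -0.12 to 0.38). Gclm, its modifier subunit, differed by -0.19 ± 0.14 (SE, adjusted p = 0.559). Deleted c read lowest of all 6 arrays for Gclm (7.33) and for Gss, the glutathione synthetase (6.16). Gss differed by -0.05 and Gsr, the reductase, by -0.04.

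Of 5 glutathione peroxidases, none passed. Gpx1, the main cytosolic enzyme that reduces hydrogen peroxide, read 11.28, 11.07 and 10.88 in controls and 10.97, 10.57 and 10.44 in deleted mice. Deleted a lay within the control range and the other deleted mice lay below it, for a log2 difference of -0.42 ± 0.16 (SE, adjusted p = 0.231). Gpx4, which reduces phospholipid hydroperoxides and guards against ferroptosis, differed by -0.18 ± 0.11 (SE) in the row used and by -0.18 in its other row (adjusted p = 0.493 for the former). Gpx7 (-0.23) and Gpx8 (-0.03), peroxidases of the endoplasmic reticulum, and Gpx3, the secreted enzyme (0.15), had adjusted p-values of 0.386, 0.944 and 0.592.

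The 4 NRF2-type targets did not pass. Txnrd1, the cytosolic thioredoxin reductase, read 7.94, 7.79 and 7.99 in controls and 8.34, 8.05 and 8.10 in deleted mice, without overlap. Its log2 difference was 0.26 ± 0.12 (SE, adjusted p = 0.326). Srxn1, which restores overoxidised peroxiredoxins, differed by 0.17 ± 0.14, and Hmox1, the haem oxygenase, by 0.19 ± 0.21 (SE). Nqo1, a quinone reductase and a standard NRF2 reporter gene, lay at 5.11 ± 0.17 in controls and 4.88 ± 0.16 in deleted mice (SD, n = 3 each), below the median of all values in both, with a difference of -0.23 ± 0.13 (SE, adjusted p = 0.436). The signs thus differed among these genes.

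The superoxide dismutases, which turn superoxide into hydrogen peroxide, differed in opposite directions and did not pass. Sod1, the cytosolic copper-zinc enzyme, read 12.36, 12.42 and 12.31 in controls and 12.17, 12.06 and 11.95 in deleted mice. Sod2, the mitochondrial manganese enzyme, read 7.50, 7.75 and 7.87 in controls and 8.21, 7.995 and 8.09 in deleted mice. In both cases the genotypes did not overlap. The log2 differences were -0.30 ± 0.10 (SE, adjusted p = 0.195) for Sod1 and 0.39 ± 0.12 (SE, adjusted p = 0.161) for Sod2. The sign of each was the same under every alternative run, with adjusted p-values of 0.0704 to 0.439 and 0.106 to 0.358.

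Peroxiredoxins reduce peroxides through reactive cysteines, and catalase splits hydrogen peroxide in peroxisomes. Prdx1, on chromosome 4, differed by 0.31 ± 0.14 (SE, adjusted p = 0.345). Its other row, numbered among rows of chromosome 16 genes, differed by 0.35. Prdx2 differed by -0.10 ± 0.14 (SE, adjusted p = 0.785) in the row used and by 0.16 in its other row, so that its direction depends on the row. The row used is numbered among rows of chromosome 1 genes, and the other among those of chromosome 8, where Prdx2 lies. Where the probes of these rows lie was not checked. Cat read 7.97 ± 0.16 in controls and 7.95 ± 0.14 in deleted mice (SD, n = 3 each), a difference of -0.03 ± 0.12 (SE) that was positive after quantile normalization and median centring.

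Related genes outside the list were described for comparison. Of 95 such genes 88 were measured, and 1 fell and none rose, or 1.14%, against 1.43% of all genes. It was Txnip, which binds and inhibits thioredoxin and restrains glucose uptake. Txnip read 10.14, 10.05 and 10.01 in controls and 9.31, 9.15 and 9.15 in deleted mice, well apart, a 1.82-fold fall (95% interval 1.55 to 2.13) with a log2 difference of -0.86 ± 0.10 (SE, limma adjusted p = 0.00671). Its call held under every alternative run, with adjusted p-values of 0.00453 to 0.0393. Selenow, a small selenoprotein with a thioredoxin-like fold, read 11.69, 11.54 and 10.83 in controls and 10.62, 9.89 and 9.71 in deleted mice and did not pass (log2 -1.28 ± 0.27 SE, adjusted p = 0.0539). Control c was the lowest control and lay close to deleted a, and the genotypes did not overlap. Selenow passed in 8 of 16 alternatives, with adjusted p-values of 0.00938 to 0.170 over all of them.

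**Figure D3:**
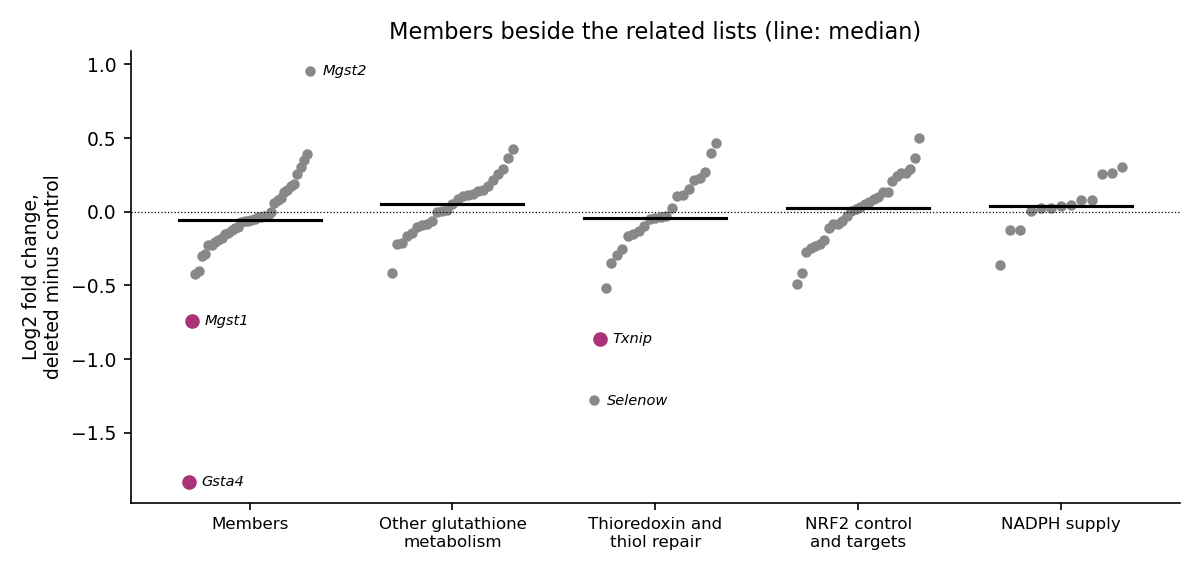
Log2 fold change, deleted minus control, of the 38 genes and of 4 related lists, with each gene as a dot ordered by value, genes past the adjusted threshold in purple and the list median as a line. The medians lie between -0.06 and 0.05, and Gsta4, Txnip and Selenow lie farthest below them.

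In the list of other glutathione genes, none of 25 passed and the median was 0.05. Its smallest p-values were those of Esd, S-formylglutathione hydrolase (0.43 ± 0.13 SE, adjusted p = 0.149), and Gpx2, a peroxidase of epithelia (-0.41 ± 0.14 SE, adjusted p = 0.193). Of 23 thioredoxin and thiol repair genes Txnip alone passed, with a list median of -0.04. Of 28 genes of NRF2 control and its targets none passed and the median was 0.02. Nfe2l2, the gene of NRF2 itself, differed by 0.29 ± 0.15 and Keap1, which targets NRF2 for degradation, by 0.10 ± 0.11 (SE, adjusted p = 0.384 and 0.728). Gpx2 had the smallest p in that list too, followed by Akr7a5, an aldehyde reductase (0.26 ± 0.11 SE, adjusted p = 0.270). Of 13 genes of NADPH supply none passed and the median was 0.04, with Nnt, the mitochondrial transhydrogenase, at -0.36 ± 0.14 and Pgls, of the pentose phosphate pathway, at 0.30 ± 0.12 (SE, adjusted p = 0.253 and 0.267).

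**Figure D4:**
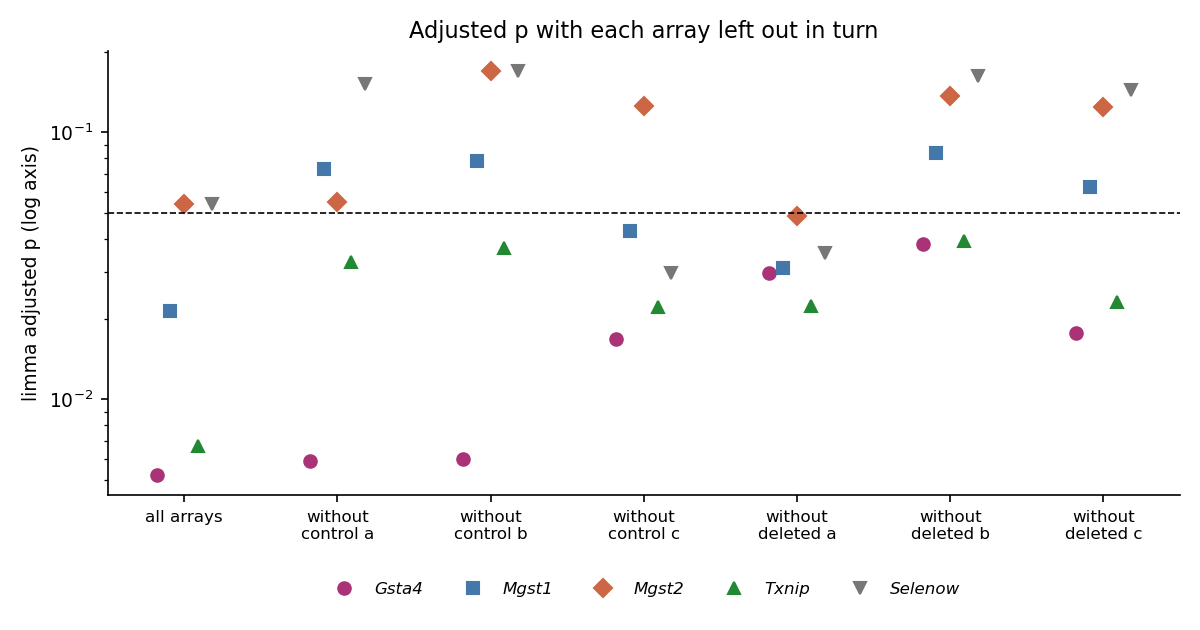
Adjusted p of limma (vertical log axis, dashed line at the threshold of 0.05) for 5 genes with all arrays and with each array left out in turn. Gsta4 and Txnip stay below the line in every fit, Mgst1 rises above it in 4 of the 6 fits with an array left out, and Mgst2 lies below it in 1 and Selenow in 2 of those 6 fits.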

How the data were processed

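From each mouse, 20 ng of RNA was amplified, per the labels' protocols, with a whole-transcriptome kit, and 2.5 µg of the cDNA was labelled and hybridised to a 1-colour Affymetrix Mouse Gene 1.0 ST array. The deposited values are log2 signals, made by the authors for each probe set, and the submitters' processing notes name RMA and Affymetrix Expression Console 1.1.2. No source used here gives the RMA settings or the annotation's build.

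Of 35556 rows, 21789 name 1 gene in the platform's annotation, 1621 name several and 12146 are unnamed here. The row with the highest mean represented the 999 genes with several rows, with no filter on low signal. The test of deleted against control mice was two-sided, from lmFit and eBayes of limma 3.58.1 under R 4.3.3, without a block (5.52 prior degrees of freedom). Its p-values were adjusted by Benjamini-Hochberg over the 19938 genes and called under 0.05. The script was tested on simulated data. The design text states that specimens of the mice were hybridised separately, so replicates are animals. The number of arrays limits the precision.

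The members and related lists were chosen with earlier results of these data known. Every measured member is named. Values on each array are given for members past the threshold or at an unadjusted p under 0.05 and for the gene with the highest mean in each functional class, and of each related list the 2 genes with the smallest p are named. Other related genes and rows were named after their values were seen. Letters a, b and c of the titles were checked for pairing: deviations of arrays with the same letter correlated at -0.01, -0.04 and 0.06, so they were not treated as pairs. Alternatives were other priors, intensity filters, normalizations, row rules, weights, thresholds, the letters as a block and leaving out each array.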

Additional observations from a re-analysis of the deposited data

How the results depend on the processing

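Gsta4, Txnip and Cebpa kept their direction and their call under all 16 alternatives fitted to them. The number of genes past the threshold, 286, became 438 among genes at or above the median intensity, 676 at a threshold of 0.1 and 41 at 0.01, and lay between 53 and 250 with an array left out (126 without control a, 53 without control b, 145, 84 and 143 without deleted a, b and c). The number of listed antioxidant genes past it, 2, was 1 at a threshold of 0.01 and 1 to 3 with an array left out. It was 3, with Mgst2 as the added higher gene, with an intensity trend, the 25th percentile filter, median centring, array weights and a threshold of 0.1. Under the median filter, which removes Mgst1, it was 1 lower and 1 higher gene. The number of related genes past it, 1, was 2 with an intensity trend, with either intensity filter, after quantile normalization, after cyclic loess and with the replicate block, 4 at a threshold of 0.1, and 1 to 2 with an array left out. The block on the letters of the titles, which do not pair the mice, gave 274 genes, 2 listed genes and 2 related genes, the added one being Selenow (adjusted p = 0.00938). Control b correlated best with deleted a (0.11) and not with its own letter. Among the 36 listed genes that did not pass, some log2 differences near 0 changed sign. After quantile normalization the values were 0.046 for Gstm2, 0.0299 for Gstm7, 0.0245 for Gstt3, 0.0036 for Gss, 0.0274 for Gsr and 0.0136 for Cat. After median centring they were 0.0457 for Gstm2, 0.0093 for Gstm7, 0.0107 for Gsr, 0.0177 for Gpx8 and 0.0226 for Cat. Gstm2 was at 0.0081 after cyclic loess, and Prdx2 at 0.02997 as the mean of its rows. With an array left out the ranges were -0.104 to 0.0164 for Gsta3, -0.135 to 0.155 for Gstm2, -0.122 to 0.23 for Gstm4, -0.11 to 0.024 for Gstm7, -0.248 to 0.0579 for Gstp1, -0.0411 to 0.148 for Gsto1, -0.105 to 0.215 for Gstk1, -0.185 to 0.138 for Gss, -0.141 to 0.0485 for Gsr, -0.135 to 0.0919 for Gpx8, -0.261 to 0.0143 for Prdx2 and -0.118 to 0.0364 for Cat. The cause of these changes was not tested. Of the listed genes 8 had both group means below the median of all values.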
